A study of Mus musculus with 25 samples.

Results

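Messenger RNA of 10 genes of the growth hormone and IGF1 axis was followed in mouse hepatocyte preparations from models designed to raise Yap activity, which was not itself measured here. The genes were taken by symbol from the table of counts: the receptors Ghr and Prlr, the transcription factor Stat5b, the circulating products Igf1 and Igfals, the IGF binding proteins Igfbp1, Igfbp2 and Igfbp4, and the feedback inhibitors Socs2 and Cish. All 10 were found among the 37117 symbols of the table, and all 10 were among the 12970 genes with enough counts to be tested. Hepatocytes from 25 liver samples were profiled with a 3′ tag method, in which each read comes from the 3′ end of a transcript, so a count does not depend on transcript length. ApoYap Dox (3 libraries) came from mice of the strain ApoE-rtTA, TRE-hYAP, in which an ApoE-driven transactivator turns on human YAP when doxycycline is given, here for 1 week at 0.2 mg/ml in drinking water with 2.5% sucrose. ApoYap ctrl (4 libraries) was the same strain left untreated. Lats1/2 KO (3 libraries) came from Lats1flox/flox; Lats2flox/flox mice 1 week after a tail vein injection of AAV8 carrying Cre under the hepatocyte-directed TBG promoter, a design to delete the Lats1 and Lats2 kinases, which inhibit Yap. Lats1/2 flox ctrl (4 libraries) was the same floxed strain with no treatment, so these controls received no virus. C57BL/6 mice gave BL/6 Dox (4 libraries, the same doxycycline course), BL/6 AAV-Cre (3 libraries, 24 hours after the virus) and BL/6 ctrl (4 libraries, untreated). The labels give no age, sex or sorting gate, and they do not say that replicates came from separate animals, so p-values measure only the spread between these libraries.

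Growth hormone from the pituitary binds GHR on hepatocytes, and the receptor-bound kinase JAK2 then phosphorylates STAT5B, which enters the nucleus and drives Igf1, Igfals, Socs2 and Cish. The liver is the main source of circulating IGF1. IGF1 travels in blood bound to IGF binding proteins, and the longest-lived complex also holds the acid-labile subunit encoded by Igfals. SOCS2 and CIS, the product of Cish, are induced by the same signal and damp it. Growth hormone is secreted in pulses, and Igfbp1 is repressed by insulin through loss of FOXO1 activity, so transcripts of this axis also follow hormone pulses and feeding.

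Promoter windows from RefSeq (GRCm38.p6) were matched for 9 of the 10 genes, with 16 windows in all. Each was searched on both strands for a STAT5 site, TTCNNNGAA, a FOXO core, AAAACAA, and a TEAD core, GGAATG. Windows run 250 bases before to 50 bases after a transcription start. The STAT5 letters were present in 4 of the 16 windows, belonging to Cish, Igfals and Prlr, and in 8.30% of the 32851 windows of all genes. The Cish window held 2 matches, a number reached by 0.457% of all windows. AAAACAA was present in 3 of the 16 windows, of Igfbp1, Stat5b and Prlr, and in 9.02% of all windows. GGAATG, read as CATTCC on the other strand, was present in 2 of the 16 windows, of Cish and Igfals, and in 14.7% of all windows. Windows of Cish, Igfals and Igfbp1 are printed because they carry the STAT5 or FOXO letters nearest to a RefSeq start of a gene described below. Each shows the 275 bases that end 25 bases after the start, on the plus strand, with the matched letters in capitals. Cish lies at chr9:107296409-107296683, Igfals at chr17:24877981-24878255 and Igfbp1 at chr11:7197537-7197811.
Cish: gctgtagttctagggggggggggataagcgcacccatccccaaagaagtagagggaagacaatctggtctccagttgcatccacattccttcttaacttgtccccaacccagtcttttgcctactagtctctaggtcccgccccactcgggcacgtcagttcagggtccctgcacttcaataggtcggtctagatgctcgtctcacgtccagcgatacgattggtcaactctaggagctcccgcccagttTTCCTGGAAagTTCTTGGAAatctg
Igfals: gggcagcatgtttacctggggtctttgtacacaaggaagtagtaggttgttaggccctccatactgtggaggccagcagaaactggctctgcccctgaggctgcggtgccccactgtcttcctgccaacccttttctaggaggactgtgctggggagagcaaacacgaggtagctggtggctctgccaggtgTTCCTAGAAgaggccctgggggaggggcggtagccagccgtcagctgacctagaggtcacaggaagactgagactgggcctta
Igfbp1: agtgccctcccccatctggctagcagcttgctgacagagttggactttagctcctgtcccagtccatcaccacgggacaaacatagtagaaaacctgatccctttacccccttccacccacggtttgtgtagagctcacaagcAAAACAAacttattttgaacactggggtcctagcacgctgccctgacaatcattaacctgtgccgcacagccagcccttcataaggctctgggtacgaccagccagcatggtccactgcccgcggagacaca

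In the printed Cish window one STAT5 match began at the RefSeq start used and the other 11 bases after it. In the printed Igfals window the match began 58 bases before the start used, and in Igfbp1 the FOXO letters began 107 bases before it. Another Igfals window held a match 236 bases before its own start, and a further one held none. In GENCODE the Cish gene begins at 107296026 and Igfals at 24865997, upstream of the printed windows. The distances therefore hold for these RefSeq starts alone. A match of letters is a description and does not show that a factor was bound.

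Depth was 8107539 to 16515330 counts per library. Levels are given as CPM, counts scaled to library size with TMM factors, on which 1 count was worth 0.0361 to 0.141 CPM. Lats1 was at 2.97 to 5.10 CPM in Lats1/2 KO and 12.3 to 14.9 CPM in Lats1/2 flox ctrl, whereas Lats2 was at 7.70 to 17.8 CPM in Lats1/2 KO and 12.9 to 13.7 CPM in Lats1/2 flox ctrl. A 3′ tag can lie outside the deleted part of a gene, and counts of mouse Yap1 do not measure the human transgene. The label is hepatocyte, and none of the 10 hepatocyte markers was at 0 in any library. Markers of other liver cells were high in ApoYap Dox and Lats1/2 KO. The summed level of 20 macrophage markers, as unscaled CPM, was 14884 to 26275 in ApoYap Dox and 122 to 283 in ApoYap ctrl, and 1047 to 2772 in Lats1/2 KO and 108 to 323 in Lats1/2 flox ctrl. The 20 endothelial markers summed to 1641 to 3196 in ApoYap Dox and 120 to 313 in ApoYap ctrl, and to 807 to 2192 in Lats1/2 KO and 125 to 382 in Lats1/2 flox ctrl. The 10 hepatocyte markers summed to 55553 to 78561 in ApoYap Dox and 81650 to 97524 in ApoYap ctrl, and to 70950 to 74498 in Lats1/2 KO and 74807 to 86251 in Lats1/2 flox ctrl. TMM factors were 1.68 to 1.84 in ApoYap Dox and 0.909 to 0.979 in ApoYap ctrl. In bulk samples fewer hepatocytes and less RNA per hepatocyte cannot be told apart, and the part of these markers in the results was not tested.

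Ghr, the growth hormone receptor (GRCm38 chromosome 15, 3317760 to 3583492, minus strand), fell under both treatments on TMM scaling. It was at 38.5, 42.8 and 32.0 CPM in ApoYap Dox, against 349.9, 424, 382 and 374 CPM in ApoYap ctrl. In Lats1/2 KO it was at 202, 175 and 298 CPM, against 445, 418, 435 and 492 CPM in Lats1/2 flox ctrl. No treated library reached its controls, and the ApoYap Dox libraries lay below the Lats1/2 KO libraries. The log2 fold change was -3.34 (SE 0.19) for Yap induction, a 10.1-fold lower level, with an adjusted p of 2.4e-13 (edgeR quasi-likelihood test, Benjamini-Hochberg adjustment over all genes tested). For the Lats1/2 knockout it was -0.99 (SE 0.17), 1.99-fold lower, with an edgeR adjusted p of 7.6e-05, but relative to hepatocyte markers it was -0.13 and not called (edgeR adjusted p = 0.37). Ghr averaged 433 ± 106 CPM in BL/6 Dox (SD, n = 4), 459 ± 22.8 CPM in BL/6 AAV-Cre (n = 3) and 429 ± 27.1 CPM in BL/6 ctrl (n = 4), and neither the doxycycline nor the virus comparison in BL/6 mice passed the threshold of 0.05.

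Prlr encodes the prolactin receptor, a cytokine receptor that also signals through JAK2 and STAT5 (chromosome 15, 10177238 to 10349180, plus strand). It was at 23.8, 34.5 and 15.6 CPM in ApoYap Dox, against 52.0, 92.6, 59.1 and 109 CPM in ApoYap ctrl. The groups did not overlap under TMM scaling but did so in unscaled CPM. Prlr fell by 1.66 on the log2 scale (SE 0.29, edgeR adjusted p = 3.5e-05), though relative to hepatocyte markers its log2 fold change was 0.30. In Lats1/2 KO it was at 50.6, 38.7 and 57.5 CPM, against 40.6, 57.3, 62.9 and 74.4 CPM in Lats1/2 flox ctrl. Those groups overlapped, and the log2 fold change was -0.26 with a 95% interval of -0.81 to 0.29 (edgeR adjusted p = 0.49).

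Stat5b (chromosome 11, 100780731 to 100850724, minus strand) moved by a smaller amount than Ghr. It was at 21.5, 21.5 and 20.3 CPM in ApoYap Dox, against 27.5, 27.0, 26.7 and 33.2 CPM in ApoYap ctrl, a log2 fold change of -0.44 (SE 0.14, edgeR adjusted p = 0.0063). It was at 14.6, 13.3 and 18.6 CPM in Lats1/2 KO, against 23.2, 22.1, 24.1 and 21.1 CPM in Lats1/2 flox ctrl, a log2 fold change of -0.54 (SE 0.14, edgeR adjusted p = 0.0036). All treated libraries were below their controls on this scaling, but the direction is not fixed: with library totals alone Stat5b was higher in ApoYap Dox, by 0.48 on the log2 scale.

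Igf1, the hormone through which the liver passes on the growth hormone signal (chromosome 10, 87858265 to 87937042, plus strand), fell 3.09-fold in ApoYap Dox. It was at 368, 432 and 374 CPM in ApoYap Dox, against 1035, 1271, 1192 and 1341 CPM in ApoYap ctrl. The log2 fold change was -1.63 (SE 0.14, edgeR adjusted p = 1.6e-10), though relative to hepatocyte markers it was 0.38. In Lats1/2 KO it was at 834, 643 and 734 CPM, against 1023, 906, 799.6 and 1163 CPM in Lats1/2 flox ctrl. There the highest knockout library lay above the lowest control library. The log2 fold change was -0.40 (SE 0.13, edgeR adjusted p = 0.018), and this call was lost without Lats1/2 KO replicate 2 (-0.31, edgeR adjusted p = 0.12) and without Lats1/2 flox ctrl replicate 4 (-0.30, edgeR adjusted p = 0.078). Its direction turned with the scaling, to 0.066 with library totals alone and to 0.47, called higher, relative to hepatocyte markers (edgeR adjusted p = 0.011).

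Igfals encodes the acid-labile subunit, the liver protein that stabilises IGF1 in blood (chromosome 17, 24865997 to 24882010, plus strand). Its promoter window with the STAT5 letters is printed above. Igfals was at 15.7, 15.9 and 11.1 CPM in ApoYap Dox, against 97.1, 130.2, 94.7 and 137 CPM in ApoYap ctrl. It was at 54.7, 49.3 and 60.1 CPM in Lats1/2 KO, against 74.3, 93.8, 97.2 and 109 CPM in Lats1/2 flox ctrl. The groups did not overlap in either pair under TMM scaling. Igfals fell 8.05-fold with Yap induction, a log2 fold change of -3.01 (SE 0.20, edgeR adjusted p = 4.8e-12), and 1.71-fold with the knockout, a log2 fold change of -0.77 (SE 0.19, edgeR adjusted p = 0.0019) that was 0.10 relative to hepatocyte markers.

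**Figure D1:**
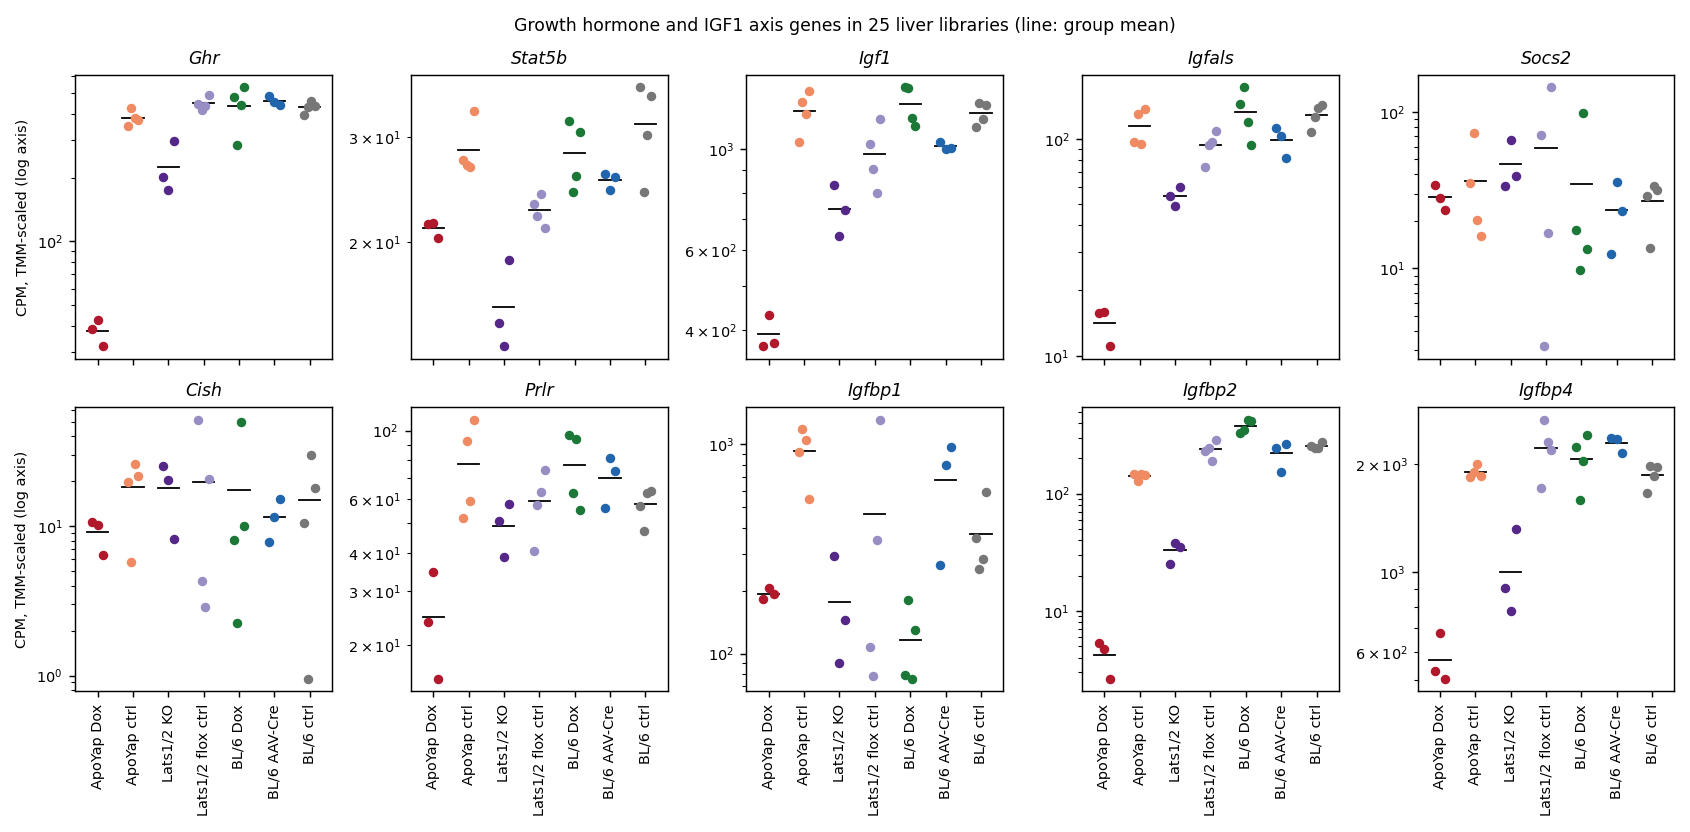
Level of each of the 10 genes (CPM after TMM scaling, log axis) in every library, with a panel per gene and the 7 groups along the x axis. Each point is a library and each bar the mean of its group. ApoYap Dox sits below every other group for Ghr, Igf1, Igfals, Prlr, Igfbp2 and Igfbp4, while Socs2 and Cish scatter widely in several groups, such as Lats1/2 flox ctrl and BL/6 Dox.

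Igfbp2, a binding protein that carries IGF1 in blood (chromosome 1, 72824503 to 72852474, plus strand), had the largest fold change of the 10 genes in both treatments. It was at 5.31, 4.71 and 2.65 CPM in ApoYap Dox, against 147, 128, 147 and 143 CPM in ApoYap ctrl. It was at 25.1, 37.8 and 35.4 CPM in Lats1/2 KO, against 229, 244, 189 and 288 CPM in Lats1/2 flox ctrl. The treated and control libraries were far apart in both pairs. Igfbp2 fell 33.2-fold with Yap induction, a log2 fold change of -5.05 (SE 0.24, edgeR adjusted p = 9.2e-15), and 5.61% of all genes tested had a change of larger size in either direction. It fell 7.24-fold with the knockout, a log2 fold change of -2.86 (SE 0.21, edgeR adjusted p = 3.6e-10). In the other groups it averaged 379 ± 48.0 CPM in BL/6 Dox, 221 ± 60.4 CPM in BL/6 AAV-Cre, 238 ± 41.0 CPM in Lats1/2 flox ctrl, 141 ± 8.98 CPM in ApoYap ctrl and 255 ± 15.1 CPM in BL/6 ctrl.

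Igfbp4, a binding protein that inhibits IGF action (chromosome 11, 99041244 to 99054392, plus strand), fell under both treatments on TMM scaling. It was at 531, 677 and 505 CPM in ApoYap Dox, against 1844, 1907, 1998 and 1850.1 CPM in ApoYap ctrl. In Lats1/2 KO it was at 906, 781 and 1321 CPM, against 1715, 2662, 2307 and 2185 CPM in Lats1/2 flox ctrl. All treated libraries were below their controls. The log2 fold change was -1.73 (SE 0.18, edgeR adjusted p = 4.1e-09) for Yap induction, though 0.26 relative to hepatocyte markers, and -1.14 (SE 0.17, edgeR adjusted p = 1.5e-05) for the knockout, though -0.27 and not called relative to hepatocyte markers (edgeR adjusted p = 0.071).

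Igfbp1, the insulin-repressed binding protein whose window with the FOXO letters is printed above (gene at chromosome 11, 7197782 to 7202546, plus strand), was at 183, 205 and 192 CPM in ApoYap Dox, against 925, 1184, 1052 and 549 CPM in ApoYap ctrl. It fell 4.79-fold, a log2 fold change of -2.26 (SE 0.77, edgeR adjusted p = 0.014), and the groups did not overlap. The call was lost with library totals alone (-1.35, edgeR adjusted p = 0.097) and relative to hepatocyte markers (-0.24, edgeR adjusted p = 0.77). In Lats1/2 KO it was at 294, 90.5 and 145 CPM, against 108, 78.0, 350.0 and 1314 CPM in Lats1/2 flox ctrl. A single control library reached 1314 CPM and the groups overlapped, with a log2 fold change of -1.39, a 95% interval of -2.85 to 0.06 and an edgeR adjusted p of 0.15. Igfbp1 also varied among the BL/6 groups, at 79.0, 179, 76.0 and 129.6 CPM in BL/6 Dox, 266, 799 and 969 CPM in BL/6 AAV-Cre, and 357, 255, 282 and 591 CPM in BL/6 ctrl. Under TMM scaling the ApoYap Dox libraries lay above every BL/6 Dox library and below every BL/6 ctrl library. On that scaling 3 of the 4 ApoYap ctrl libraries lay above every BL/6 ctrl library. In unscaled CPM ApoYap Dox, at 325 to 352, lay inside the range of BL/6 ctrl, at 220 to 534.

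Socs2 and Cish, the feedback inhibitors that STAT5 induces, passed no threshold in any comparison and varied more between replicates than nearly all other genes. Socs2 (chromosome 10, 95385362 to 95417180, minus strand) was at 34.1, 28.3 and 23.5 CPM in ApoYap Dox, against 35.0, 73.1, 20.4 and 16.0 CPM in ApoYap ctrl. It was at 33.7, 66.0 and 39.0 CPM in Lats1/2 KO, against 71.0, 3.18, 16.8 and 143 CPM in Lats1/2 flox ctrl. The treated libraries lay inside the range of their controls in both pairs. The log2 fold change was -0.34 in each, with a 95% interval of -2.07 to 1.39 for Yap induction (edgeR adjusted p = 0.75) and -2.06 to 1.37 for the knockout (edgeR adjusted p = 0.79), so a change of several fold either way was not detectable.

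Cish (chromosome 9, 107296026 to 107302784, plus strand) was at 10.6, 10.2 and 6.47 CPM in ApoYap Dox, against 19.8, 5.78, 26.3 and 21.8 CPM in ApoYap ctrl. It was at 25.3, 20.3 and 8.17 CPM in Lats1/2 KO, against 51.8, 4.32, 2.86 and 20.8 CPM in Lats1/2 flox ctrl. Both pairs of groups overlapped. The log2 fold change was -1.01 (95% interval -2.91 to 0.90, edgeR adjusted p = 0.37) for Yap induction and -0.17 (95% interval -2.04 to 1.70, edgeR adjusted p = 0.91) for the knockout. In BL/6 mice Cish was at 8.04, 2.26, 50.02 and 10.1 CPM in BL/6 Dox, 7.90, 11.6 and 15.2 CPM in BL/6 AAV-Cre, and 10.5, 0.955, 30.1 and 17.9 CPM in BL/6 ctrl, so a spread of this size was present in untreated mice as well.

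The spread within groups separated the 10 genes clearly. The SD of log2 CPM within groups was 1.47 for Cish and 1.28 for Socs2, and only 0.185% and 0.278% of all genes tested varied more. It was 0.955 for Igfbp1, with 1.75% of genes varying more, and 0.392 for Prlr. Igf1 was among the steadier genes, with an SD of 0.155 against a median of 0.307 over all genes, and 88.9% of genes varied more. The library with the highest Socs2 in BL/6 Dox, replicate 3 at 98.2 CPM, also had the highest Cish of that group, at 50.02 CPM. In Lats1/2 flox ctrl, replicates 1 and 4 had the higher level of both genes and replicates 2 and 3 the lower. Over the 25 libraries, after the group means were removed, Socs2 and Cish had a Pearson r of 0.584 (p = 0.0259, two-sided permutation test) and a Spearman rho of 0.588 (p = 0.0175). These were 1 of 45 pairs among the 10 genes, and after Benjamini-Hochberg adjustment the p-values were 0.292 and 0.197. Without the 2 libraries farthest from the median Socs2 value, r was 0.594. Ghr and Igfbp4 had the highest r of the 45 pairs, 0.766 (permutation p = 0.00381, adjusted 0.171) with a rho of 0.671 (permutation p = 0.00555, adjusted 0.168), and r was 0.615 without the 2 farthest libraries. No pair passed the adjustment by either measure.

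**Figure D2:**
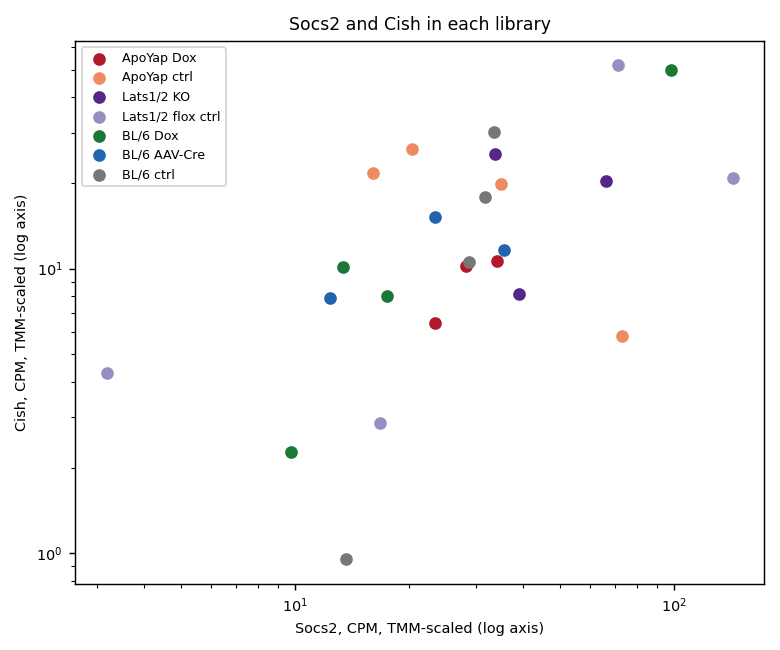
Socs2 (x axis) against Cish (y axis), both in CPM after TMM scaling on log axes, with a point per library coloured by group. The libraries of a single group spread over much of both axes, and the r of 0.584 after removal of group means did not pass adjustment over the 45 pairs of genes.

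Counted over the 10 genes, 8 were lower and 0 higher with Yap induction at an edgeR adjusted p under 0.05, under TMM scaling. In that comparison 67% of all genes tested were called, 32% lower and 35% higher. Under the same scaling these 8 genes had every ApoYap Dox library below every ApoYap ctrl library, as did 32.6% of all genes. The median log2 fold change was -1.70 over the 10 genes and 0.068 over all genes tested. With the Lats1/2 knockout 6 of the 10 genes were lower and 0 higher, where 17.4% of all genes were called lower, 20.6% higher and 38% in either direction. For 5 of the 6, all but Igf1, no knockout library reached a control library under TMM scaling, as for 18.8% of all genes. The median log2 fold change was -0.66 over the 10 genes and -0.028 over all genes. Relative to hepatocyte markers the counts were 3 lower and 2 higher with induction, and 1 lower and 2 higher with the knockout. On that scale the median of all genes was itself 2.09 and 0.86 higher, so the shares above, which are for TMM scaling, do not apply.

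**Figure D3:**
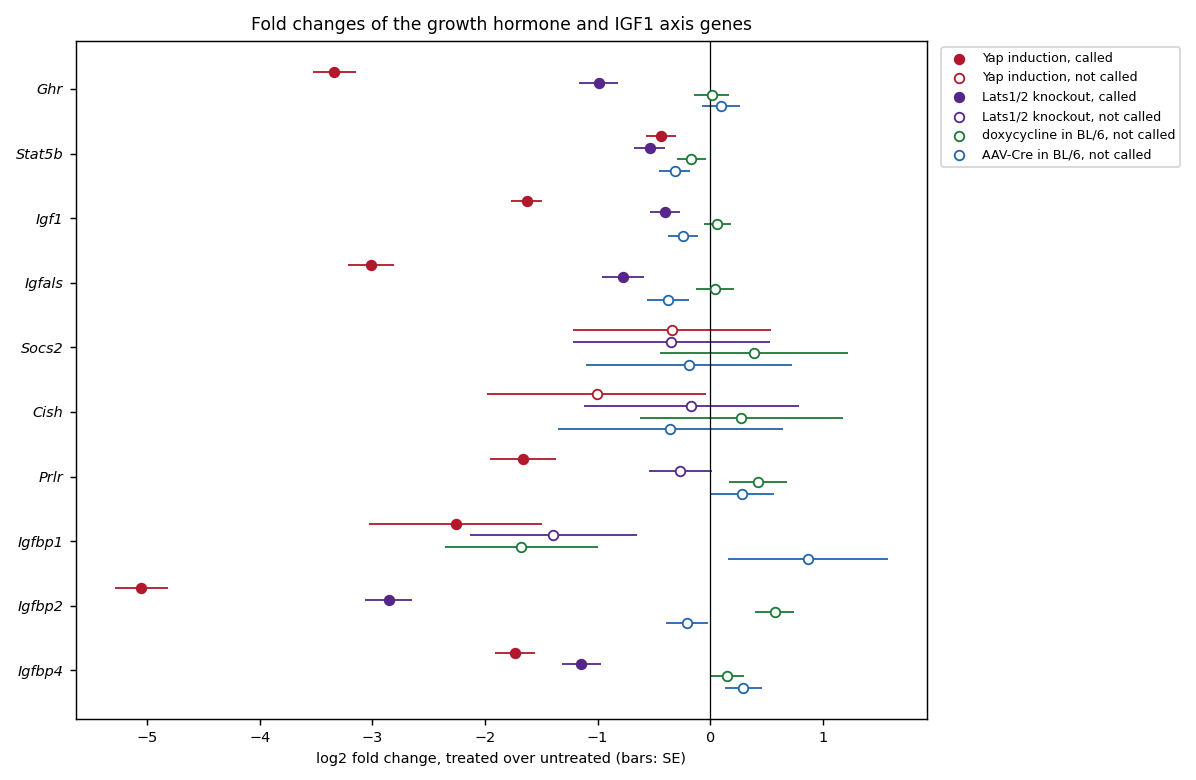
Log2 fold change of each of the 10 genes (x axis, bars are SE) for Yap induction, the Lats1/2 knockout, doxycycline in BL/6 and AAV-Cre in BL/6. Filled points passed an adjusted p of 0.05 in edgeR, 8 in the first comparison, 6 in the second and 0 in the others. The direction of Stat5b in both treatments, of Igf1, Prlr and Igfbp4 with induction and of Igf1, Prlr and Igfals with the knockout depended on the scaling.

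In BL/6 Dox, doxycycline came with 2.5% sucrose and BL/6 ctrl received neither, so the agents cannot be told apart. In BL/6 mice 0 of the 10 genes were called with doxycycline, where 0.123% of all genes were called. DESeq2 and limma also called 0 of the 10. At an unadjusted p under 0.05 there were 2 such genes. Igfbp2 had a log2 fold change of 0.57 (SE 0.17, edgeR adjusted p = 0.20), with all BL/6 Dox libraries above all BL/6 ctrl libraries, as for 3.33% of all genes, and Igfbp1 one of -1.68 (SE 0.68, edgeR adjusted p = 0.33), with all BL/6 Dox libraries below, as for 3.29% of all genes. With AAV-Cre in BL/6 0 of the 10 were called, where 0.301% of all genes were called, and DESeq2 and limma again called 0. Stat5b alone had an unadjusted p under 0.05, with a log2 fold change of -0.31 (edgeR adjusted p = 0.32).

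The fold change in the ApoYap strain was set against that in BL/6 mice. This tests whether doxycycline with sucrose acted differently in the mice that carry the transgene. The difference was called lower for 6 of the 10 genes, where 27.4% of all genes were called lower and 54.1% in either direction. These were Ghr (-3.35), Igf1 (-1.69), Igfals (-3.05), Prlr (-2.08), Igfbp2 (-5.62) and Igfbp4 (-1.88), as log2 differences. Igfbp1 and Stat5b were not among them. The Igfbp1 difference was -0.58, with a 95% interval of -2.50 to 1.33 (edgeR adjusted p = 0.64), and BL/6 Dox also had less Igfbp1 than BL/6 ctrl in every library. Stat5b differed by -0.27 (edgeR adjusted p = 0.22). For the knockout set against AAV-Cre in BL/6, 3 genes were called lower, where 11.4% of all genes were called lower and 24.4% in either direction: Ghr (-1.09), Igfbp2 (-2.65) and Igfbp4 (-1.44). The virus had acted for 1 week in Lats1/2 KO and for 24 hours in BL/6 AAV-Cre, and that gap and the deletion cannot be told apart here.

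The fold change of the knockout minus that of Yap induction was higher for 5 of the 10 genes, where 17.4% of all genes were called higher and 29.8% in either direction. The log2 difference was 2.35 for Ghr, 1.23 for Igf1, 2.24 for Igfals, 1.40 for Prlr and 2.19 for Igfbp2 under TMM scaling. Relative to hepatocyte markers the difference passed the threshold for Ghr, Igfals and Igfbp2 but not for Igf1, at 0.47 with the knockout and 0.38 with induction, or Prlr, at 0.60 and 0.30, and the median difference over the 10 genes was -0.069, against 1.05 under TMM scaling. Igfbp4 differed by 0.59 and missed the threshold (edgeR adjusted p = 0.061). The strain, the agent and the controls differ between the pairs along with the transgene or deletion, and these cannot be told apart.

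Between untreated strains 1 of the 10 genes was called in each comparison. Igfbp2 was 1.8-fold lower in ApoYap ctrl than in BL/6 ctrl, a log2 fold change of -0.85 (SE 0.17, edgeR adjusted p = 0.018), and no libraries overlapped. In that comparison 0.293% of all genes were called lower and 0.439% in either direction. The call was lost when ApoYap ctrl replicate 1, 2, 3 or 4 or BL/6 ctrl replicate 4 was left out, with edgeR adjusted p-values of 0.051 to 0.083. Stat5b was lower in Lats1/2 flox ctrl than in BL/6 ctrl, a log2 fold change of -0.48 (edgeR adjusted p = 0.030), where 0.971% of all genes were called lower and 4.12% in either direction. That call was lost in 7 of the 8 fits that left out 1 library. Both comparisons share their control libraries with others given here.

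The order of the group means under TMM scaling shows how far apart the groups stood. For Ghr the 5 groups other than ApoYap Dox and Lats1/2 KO overlapped step by step. Lats1/2 KO came next with no overlap with its neighbour ApoYap ctrl, and ApoYap Dox lay below Lats1/2 KO with no overlap. The highest Lats1/2 KO library, at 298 CPM, was above the lowest BL/6 Dox library, at 285 CPM. In unscaled CPM Ghr in Lats1/2 KO, at 225 to 341, overlapped ApoYap ctrl, at 318 to 389. For Igfbp2 the order was BL/6 Dox, then BL/6 ctrl, Lats1/2 flox ctrl and BL/6 AAV-Cre, which overlapped their neighbours, then ApoYap ctrl, Lats1/2 KO and ApoYap Dox, each apart from the group before it. In unscaled CPM Igfbp2 in ApoYap ctrl, at 118 to 144, overlapped BL/6 AAV-Cre, at 140 to 236. Igfals and Igfbp4 also had Lats1/2 KO above ApoYap Dox with no overlap. In unscaled CPM the Igfbp4 groups overlapped, at 1007 to 1508 in Lats1/2 KO and 927 to 1137 in ApoYap Dox. For Prlr only ApoYap Dox stood apart, and for Socs2 and Cish every neighbouring pair overlapped. In unscaled CPM Prlr in ApoYap Dox, at 28.6 to 58.0, overlapped ApoYap ctrl, at 47.2 to 101.

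Size and direction depended on what the counts were set against. With library totals alone the median gene rose by 0.99 on the log2 scale in ApoYap Dox and by 0.44 in Lats1/2 KO, and the median of the 10 genes was -0.79 and -0.19. On that scale Ghr (-2.43), Igf1 (-0.71), Igfals (-2.10), Prlr (-0.76), Igfbp2 (-4.14) and Igfbp4 (-0.82) were still called lower with Yap induction, and Ghr (-0.53), Igfbp2 (-2.37) and Igfbp4 (-0.68) with the knockout. Stat5b was called higher with induction (0.48), and Igfbp1 with induction (-1.35) and Igfals (-0.31), Stat5b (-0.077) and Igf1 (0.066) with the knockout were no longer called. Relative to 10 hepatocyte markers such as Alb and Hnf4a, a scaling chosen after seeing the data, the median gene was 2.09 higher in ApoYap Dox and 0.86 higher in Lats1/2 KO, and the 10 genes had medians of 0.28 and 0.22. Ghr (-1.34), Igfals (-1.02) and Igfbp2 (-3.09) were lower than these markers with Yap induction, whereas Stat5b (1.57) and Igf1 (0.38) were called higher. With the knockout only Igfbp2 (-1.97) was called lower of the 10, Igf1 (0.47) and Prlr (0.60) were called higher, and Ghr was at -0.13. Igfbp2 was thus called lower in both treatments, and Ghr and Igfals with Yap induction, under TMM scaling, library totals and hepatocyte markers alike. The markers themselves had a median log2 fold change of -1.70 with induction and -0.62 with the knockout under TMM scaling. The scaling used their geometric mean, not the sums given above. The markers did not move together. On their own scale 4 of the 10 were called higher and 3 lower with induction, and 2 and 1 with the knockout.

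**Figure D4:**
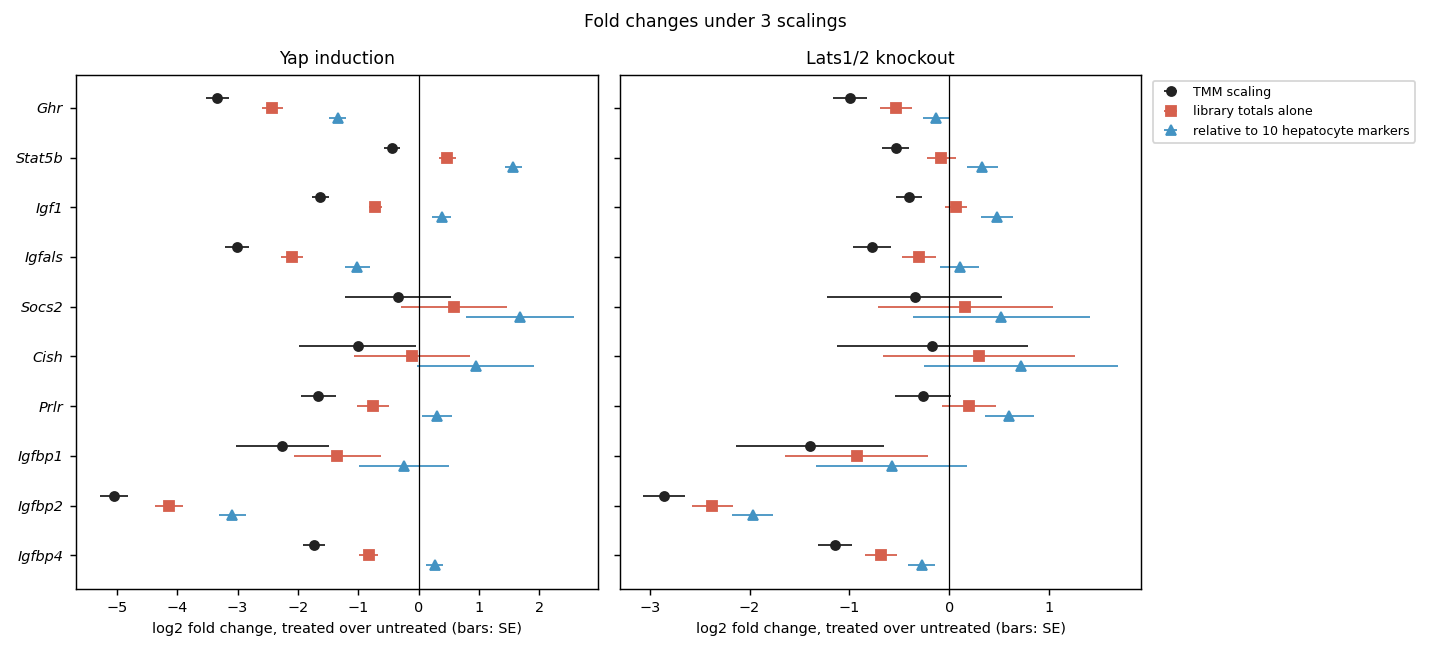
Log2 fold change of each of the 10 genes (x axis) for Yap induction and the Lats1/2 knockout under TMM scaling, library totals alone and scaling to 10 hepatocyte markers. Bars are SE. Igfbp2 is negative throughout, Ghr is negative throughout, and Stat5b and Igf1 change sign between scalings in both comparisons.

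Genes whose level followed each member most closely were found by Pearson r of log2 CPM over the 25 libraries, among 8139 candidate genes, and are given as descriptions. Over 25 libraries that share treatments, high values are common. For Ghr they were Akr1c6 (0.992), Slco1b2 (0.990) and Aass (0.989), and for Igfbp2 Dhdh, Pbld2 and Enpp2 (0.976 each). For Igf1 they were Nat8f1 (0.974), Qprt (0.974) and Gjb1 (0.973), for Igfals Ptprf (0.982), Nat8f1 (0.982) and Ebp (0.981), and for Igfbp4 Cdo1 (0.977) and Anpep (0.976). Over the 19 libraries outside ApoYap Dox and Lats1/2 KO the r of Ghr was 0.717 with Akr1c6, 0.552 with Slco1b2 and 0.827 with Aass. In the order given above, it was 0.526, 0.667 and 0.735 for Igfbp2 and 0.775, 0.829 and 0.834 for Igf1. It was 0.744, 0.832 and 0.751 for Igfals, and 0.630 and 0.775 for Igfbp4. Likeness over the 25 libraries was weaker for the variable genes. For Socs2 it was led by Onecut1 (0.694), Abhd17b (0.656) and Phf20l1 (0.635), and for Cish by Egfros (0.717), Arid5b (0.693) and Onecut1 (0.660). Onecut1, which encodes a hepatocyte transcription factor, appeared for both, with an r over the 19 libraries of 0.708 for Socs2 and 0.670 for Cish. For Igfbp1 the leading genes were Bach2 (0.793), Irs2 (0.781) and Eef1akmt1 (0.779), and Irs2, which encodes an insulin receptor substrate, had an r of 0.866 over the 19 libraries. For Prlr they were Pla1a (0.898), Wasl (0.895) and Cyp2c54 (0.877), and for Stat5b Krcc1 (0.876), Asb8 (0.871) and Paics (0.846). Over the 19 libraries the r was 0.549, 0.681 and 0.661 for Prlr and 0.659, 0.761 and 0.597 for Stat5b.

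Other genes of the receptor's signalling chain moved in both directions on TMM scaling. Of 16 such genes, 7 were higher and 3 lower with Yap induction, and 4 higher and 1 lower with the knockout, and their median log2 fold changes were 0.50 and 0.13. Over all genes tested 35% were higher and 32% lower with induction, and 20.6% higher and 17.4% lower with the knockout, so the share that was higher was near that of all genes. Phosphatases that switch off JAK2 and STAT signals were among those that rose. Ptpn1 averaged 188 ± 29.6 CPM in ApoYap Dox and 36.1 ± 1.75 CPM in ApoYap ctrl (SD, n = 3 and 4), a log2 fold change of 2.38 (edgeR adjusted p = 5.5e-13), and rose by 0.76 with the knockout (edgeR adjusted p = 0.00018). Ptpn6, a phosphatase abundant in blood cells, averaged 117 ± 17.2 CPM in ApoYap Dox and 21.6 ± 0.599 CPM in ApoYap ctrl, a log2 fold change of 2.44, and its change with the knockout was 0.67. Sirpa, a receptor of myeloid cells, rose by 4.89 and by 2.29, and Jak2 itself rose by 1.00 with the knockout. Sos1, which links receptors to RAS, fell by 1.00 with induction and by 0.65 with the knockout, but relative to hepatocyte markers it was at 0.99 with induction, called higher, and at 0.23 with the knockout, not called. Shc1 (-0.61) and Stat3 (-0.48) fell with induction under TMM scaling and rose with library totals alone. With library totals 14 of the 16 were higher and 0 lower with induction, and 11 and 0 with the knockout, on a scale where the median of all genes was itself 0.99 and 0.44 higher. Relative to hepatocyte markers the counts were 16 and 0, and 14 and 0, where the median of all genes was 2.09 and 0.86 higher. Macrophage and endothelial markers, given above, were also high in ApoYap Dox and Lats1/2 KO, and the part of those cells in these counts was not tested.

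Of 12 further IGF ligands, receptors and binding partners, 7 passed the filter on low counts, and Igf2, Igfbp6, Pappa, Pappa2 and Htra1 did not. With Yap induction 4 of the 7 were higher and 1 lower, and with the knockout 3 were higher and 1 lower, whereas with library totals, and relative to hepatocyte markers, 6 were higher and 0 lower with induction and 4 and 0 with the knockout. Over all genes 35% were higher and 32% lower with induction, and 20.6% and 17.4% with the knockout, under TMM scaling. The median of all genes was 0.99 and 0.44 higher with library totals, and 2.09 and 0.86 higher relative to hepatocyte markers. Igf1r, the IGF1 receptor, is scarce in hepatocytes. It averaged 3.91 ± 0.733 CPM in ApoYap Dox and 0.331 ± 0.186 CPM in ApoYap ctrl, a log2 fold change of 3.59 (SE 0.58, edgeR adjusted p = 5.8e-06), and 2.13 ± 1.09 CPM in Lats1/2 KO and 0.450 ± 0.257 CPM in Lats1/2 flox ctrl, a log2 fold change of 2.23 (edgeR adjusted p = 0.004). Igfbp7, a binding protein of endothelial cells, averaged 35.3 ± 12.0 CPM in ApoYap Dox and 6.17 ± 2.19 CPM in ApoYap ctrl, and rose by 2.53 on the log2 scale, and by 2.17 with the knockout. Stc2, an inhibitor of the protease that frees IGF1 from its binding proteins, had 232 counts in ApoYap Dox and 0 counts in ApoYap ctrl, at least 50.1-fold higher against a floor of 3 counts over the group. Igfbp3 rose by 1.93 with the knockout. Markers of macrophages and endothelial cells were high in the same treated groups, as given above, and the part of those cells in these rises was not tested. Igfbp5 fell by 1.44 with induction, a call lost without ApoYap Dox replicate 1, and by 1.50 with the knockout, a call lost without Lats1/2 KO replicate 3 or Lats1/2 flox ctrl replicate 4, and relative to hepatocyte markers its log2 fold change with induction was 0.61, not called (edgeR adjusted p = 0.23).

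In the insulin and FOXO1 branch, which governs Igfbp1, 3 of 17 genes were higher and 8 lower with Yap induction, and 1 higher and 4 lower with the knockout, where 35% of all genes were higher and 32% lower with induction, and 20.6% and 17.4% with the knockout. Net of doxycycline 1 was higher and 8 lower, where 27.4% of all genes were lower and 54.1% called in either direction. G6pc, the last enzyme of glucose output and a FOXO1 target, had the largest change of those named. It fell by 6.14 with induction (SE 0.53, edgeR adjusted p = 2.9e-09). Pck1, another enzyme of gluconeogenesis, fell by 2.44 under TMM scaling, where the hepatocyte markers had a median log2 fold change of -1.70. With the knockout G6pc fell by 1.28, a call lost without Lats1/2 KO replicate 1 or 2 or Lats1/2 flox ctrl replicate 4. Akt1 rose by 1.08 with induction and Akt2 fell by 0.73, but with library totals alone the value of Akt2 was 0.19 (edgeR adjusted p = 0.16). Set against library totals, 9 of the 17 were higher and 2 lower with induction, and 7 and 1 with the knockout, and relative to hepatocyte markers 13 were higher and 1 lower, and 11 and 0. The median of all genes was itself 0.99 and 0.44 higher with library totals, and 2.09 and 0.86 higher relative to hepatocyte markers. The shares above, for TMM scaling, do not apply to these counts.

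Liver genes that differ between males and females depend on the pattern of growth hormone pulses through STAT5B. Every library had at least 72.9 unscaled CPM of the Y-linked gene Ddx3y and at most 0.529 unscaled CPM of Xist. Of 15 male-biased genes, 12 were lower and 0 higher with Yap induction, with a median log2 fold change of -3.90, and 10 were lower and 1 higher with the knockout, with a median of -1.27. Over all genes tested 32% were lower and 35% higher with induction, and 17.4% lower and 20.6% higher with the knockout. Net of doxycycline in BL/6 mice 11 of the 15 were lower and 0 higher, and net of AAV-Cre 4 were lower and 1 higher, with a median of -0.91. Of all genes 27.4% were lower and 54.1% called in either direction net of doxycycline, and 11.4% and 24.4% net of AAV-Cre. Slco1a1, a transporter, averaged 6.42 ± 1.73 CPM in ApoYap Dox and 271 ± 21.1 CPM in ApoYap ctrl, a log2 fold change of -5.39 (edgeR adjusted p = 1.1e-14), and fell by 0.95 with the knockout. Nox4, an NADPH oxidase, fell by 3.34 and by 1.42, and Hsd3b5, a steroid dehydrogenase, fell by 8.71 and by 2.05. With induction 11 were lower and 1 higher with library totals, and 11 lower and 3 higher relative to hepatocyte markers. With the knockout the 10 lower calls became 6 with library totals and 3 relative to hepatocyte markers, with 1 higher in each. Of 24 female-biased genes 13 passed the filter, and 6 were higher and 6 lower with induction, and 1 higher and 4 lower with the knockout, which became 2 higher and 3 lower with library totals and 3 higher and 2 lower relative to hepatocyte markers. Net of doxycycline 2 of the 13 were higher and 6 lower, and net of AAV-Cre 0 were higher and 3 lower, against the net shares of all genes given above. The median of all genes was 0.99 and 0.44 higher with library totals, and 2.09 and 0.86 higher relative to hepatocyte markers. Cyp17a1, a steroid hydroxylase, fell by 6.00 and by 3.09, whereas Fmo2, a flavin monooxygenase, rose by 4.44 with induction. Counts of the Cyp and Mup genes are uncertain because near-identical copies can share reads. Among 4 regulators of sex-biased liver genes, Cux2, a repressor found in female liver, averaged 9.37 ± 4.46 CPM in ApoYap Dox and 0.255 ± 0.167 CPM in ApoYap ctrl and rose by 5.20 on the log2 scale (SE 0.59, edgeR adjusted p = 2.5e-08). Trim24, a nuclear receptor cofactor, rose by 0.76 with induction, and with the knockout its log2 fold change was 0.40 (edgeR adjusted p = 0.12).

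**Figure D5:**
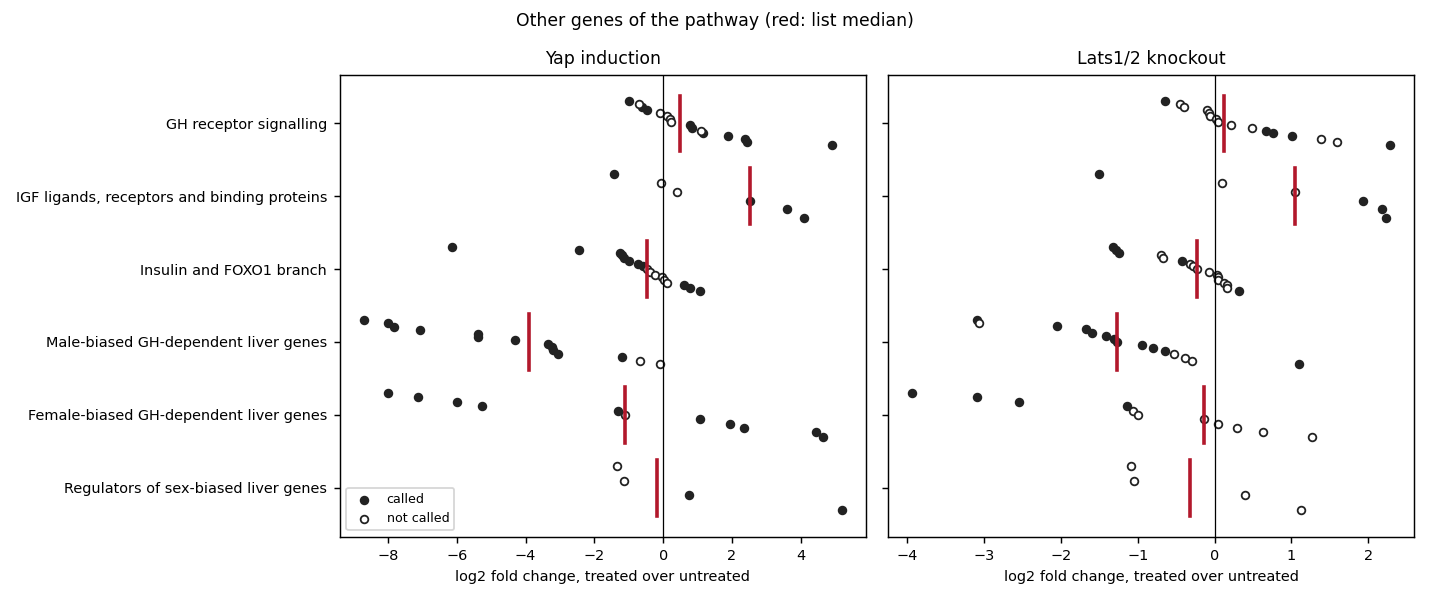
Log2 fold change (x axis, TMM scaling) of the tested genes of each list of the growth hormone, IGF and insulin axis, for Yap induction and the Lats1/2 knockout. Each point is a gene, filled where it passed an adjusted p of 0.05 in edgeR, and the red line is the median of all tested genes of the list, while genes with 3 counts or fewer in a group are not drawn as points. The male-biased genes lie mostly below 0 in both comparisons.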

How the data were processed

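Hepatocytes were isolated from perfused, collagenase-treated livers by low-speed centrifugation and sorted by FACS, and 500000 cells per sample were lysed for QuantSeq 3′ mRNA-Seq FWD libraries, per the labels' protocols. The authors deposited raw read counts per gene symbol. FastQC, cutadapt, STAR 2.6.1d and the mm10 genome are named in the submitters' processing notes, while the program that counted reads, its annotation and its strand setting (not given in the sources used here) leave it unknown whether reads of overlapping antisense genes are included. All 25 value columns matched a sample.

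The counts were filtered with filterByExpr (minimum count 10, minimum total 15), scaled by TMM and fitted with edgeR 4.0.16 in R 4.3.3 (robust quasi-likelihood) with a mean for each of the 7 groups. Benjamini-Hochberg adjustment ran over all 12970 genes tested, with a threshold of 0.05. Standard errors were taken as |log2 fold change| over the root of the F statistic, and 95% intervals from these with a normal quantile. Such intervals are narrower than the F test implies and can disagree with its p-values. Fold changes use a prior count of 0.125. Interactions were contrasts of the same fit. The scripts were tested on simulated data. Alternatives were DESeq2 1.42.0, limma 3.58.1, other scalings and filters, a replicate block, only the compared groups, and each library left out in turn. Correlations between pairs of genes used 100000 permutations within groups. Depth of 8107539 to 16515330 counts limits genes of few counts, and the floor of 3 counts covers counting error only. Replicates differed by more than counting noise, with a lowest chi-square per degree of freedom of 7.13, so none was counted as a repeat of another.

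The 10 genes and the other lists were chosen with earlier results of these data known. Named genes are the 10 members, up to 4 called genes per direction and list with the smallest p, of which the text gives a part, and the 3 genes most like each member in Pearson r of log2 CPM (prior count 2, average log2 CPM of at least 2). Some genes that this rule names are not reported here. Gene positions are from GENCODE and promoters from RefSeq, both on GRCm38.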

Additional observations from a re-analysis of the deposited data

Results flagged for a closer look

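Among 40 sets of 4 replicates, 3 had a library whose distance from the nearest other took up more of the range than the 95% critical value of Dixon's test, which chance alone exceeds in about 1 in 20 sets. Stat5b was at 33.2 CPM in ApoYap ctrl replicate 4, the highest of that group. Socs2 was at 98.2 CPM and Cish at 50.02 CPM in BL/6 Dox replicate 3, each the highest of its group, and both stood in the same library.

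The fold change with doxycycline and sucrose differed between the ApoYap strain and BL/6 mice by an interaction test in edgeR. It did so for Ghr (-3.35 on the log2 scale), Igf1 (-1.69), Igfals (-3.05), Prlr (-2.08), Igfbp2 (-5.62) and Igfbp4 (-1.88). The fold change with AAV-Cre differed between floxed and BL/6 mice for Ghr (-1.09), Igfbp2 (-2.65) and Igfbp4 (-1.44), with the virus given 1 week before in floxed mice and 24 hours before in BL/6 mice.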

How the results depend on the processing

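With Yap induction 8 of the 10 genes were lower, and this count stayed at 8 in every fit that left out 1 library, while for the knockout it ran from 5 to 6. The counts without 1 library were 6 to 6 lower for induction net of doxycycline, 3 to 3 lower for the knockout net of AAV-Cre, 5 to 6 higher for the knockout minus induction, 0 to 1 lower for untreated ApoYap and for untreated floxed against BL/6 mice, and 0 to 0 for doxycycline and AAV-Cre in BL/6. With library totals alone the log2 value was 0.48 for Stat5b with induction, 0.66 for Stat5b net of doxycycline and 0.066 for Igf1 with the knockout, with 1 gene higher in induction, 1 higher net of doxycycline, 3 lower in the knockout and 1 lower in the knockout minus induction. On that scale the median of all genes was 0.99 with induction, 0.96 net of doxycycline, 0.44 with the knockout and -0.45 in the knockout minus induction. Relative to hepatocyte markers, added after seeing the data, the log2 value was 1.57 for Stat5b, 0.38 for Igf1, 0.30 for Prlr and 0.26 for Igfbp4 with induction, and 0.33 for Stat5b, 0.47 for Igf1, 0.10 for Igfals and 0.60 for Prlr with the knockout. Net of doxycycline it was 1.67 for Stat5b, 0.22 for Igf1 and 0.042 for Igfbp4, net of AAV-Cre 0.70 for Stat5b and 0.77 for Igf1, and for Igfbp4 in the knockout minus induction -0.54. The counts were then 2 higher and 3 lower with induction, 2 higher and 1 lower with the knockout, 1 higher and 3 lower net of doxycycline, 2 higher net of AAV-Cre and 3 higher and 2 lower in the knockout minus induction. In the same order the median of all genes was itself 2.09, 0.86, 1.96, 0.90 and -1.14. With a log2 fold change of at least 1 required, the knockout had 2 lower genes. Untreated ApoYap against BL/6 had 0 lower genes at an adjusted p under 0.01, with a log2 fold change of at least 1 or relative to hepatocyte markers, and untreated floxed against BL/6 had 3 with limma voom, 2 in a fit of the compared groups alone and 0 in those same 3 settings. The Igf1 call with the knockout was lost with limma (-0.26, limma adjusted p = 0.084), RLE scaling (-0.33, edgeR adjusted p = 0.053) and the compared groups alone (-0.34, edgeR adjusted p = 0.16). Of all values for single genes under other settings, 1910 stayed on the same side of the threshold, 89 of them with the opposite sign but called in neither fit, 42 lost a call, 11 gained one and 17 turned round. The cause of these changes was not tested. Samples were not paired by replicate number in the main fit. The deviations of 13 same-numbered pairs had an r of -0.240 to 0.164 and 2 were over 0.1. With 3 or 4 libraries per group these values cannot exclude a pairing. A replicate block left 8 genes lower with induction and 6 with the knockout.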
